A study of Mus musculus with 8 samples.

Results

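Inward rectifier potassium channels (Kir, encoded by the Kcnj genes) were examined in PrL tissue of mice after SNI or sham treatment. The genes were taken by symbol from the deposited count table: Kcnj2, Kcnj3, Kcnj4, Kcnj6, Kcnj8, Kcnj9, Kcnj10, Kcnj11, Kcnj12 and Kcnj16. All 10 had a row among the 14765 genes of the table, and all 10 were among the 13911 that passed the filter on low counts. PrL is read here as the prelimbic area of the medial prefrontal cortex, and SNI as spared nerve injury, in which branches of the sciatic nerve are cut to produce long-lasting pain. The samples were 4 Sham and 4 SNI libraries of C57 mice, with no other genotype or agent named, and the sources used here do not give the age, sex or time after surgery. The labels do not tie libraries to single animals, so p-values here reflect only how these libraries spread, and part of that may be technical.

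Inward rectifiers pass potassium more easily into the cell than out of it and hold the membrane near its resting potential. Subunits of the Kir2 group are open at rest in neurons, while Kir3 channels (GIRK) open when a Gi/o-coupled receptor releases the G protein beta gamma dimer, which slows firing. Kir4.1, alone or together with Kir5.1, gives astrocytes their high potassium permeability and helps clear potassium from around active neurons. Kir6 subunits assemble with sulfonylurea receptors into channels that ATP closes.

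Kcnj3, which encodes Kir3.1, was the 1 gene of the family that fell at an adjusted p under 0.05, and 0 rose. Of all 13911 genes tested, 5.02% passed that threshold in either direction, 2.15% higher and 2.87% lower, so 1 of 10 is a count near the background. The log2 fold change of SNI over Sham was below 0 for 8 of the 10 genes, as it was for 47.8% of all tested genes. The median over the 10 was -0.22 on the log2 scale, against 0.01 over all genes. At an unadjusted p under 0.05 stood 5 of the 10 (Kcnj3, Kcnj4, Kcnj6, Kcnj11 and Kcnj12), against 21.1% of all tested genes. Kcnj3 and Kcnj4 were the 2 genes whose 4 SNI values all lay below the 4 Sham values, a separation found for 12.7% of tested genes (7.02% with SNI lower and 5.64% with SNI higher). In bulk tissue, fewer cells of a type and less RNA per cell cannot be told apart.

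**Figure D1:**
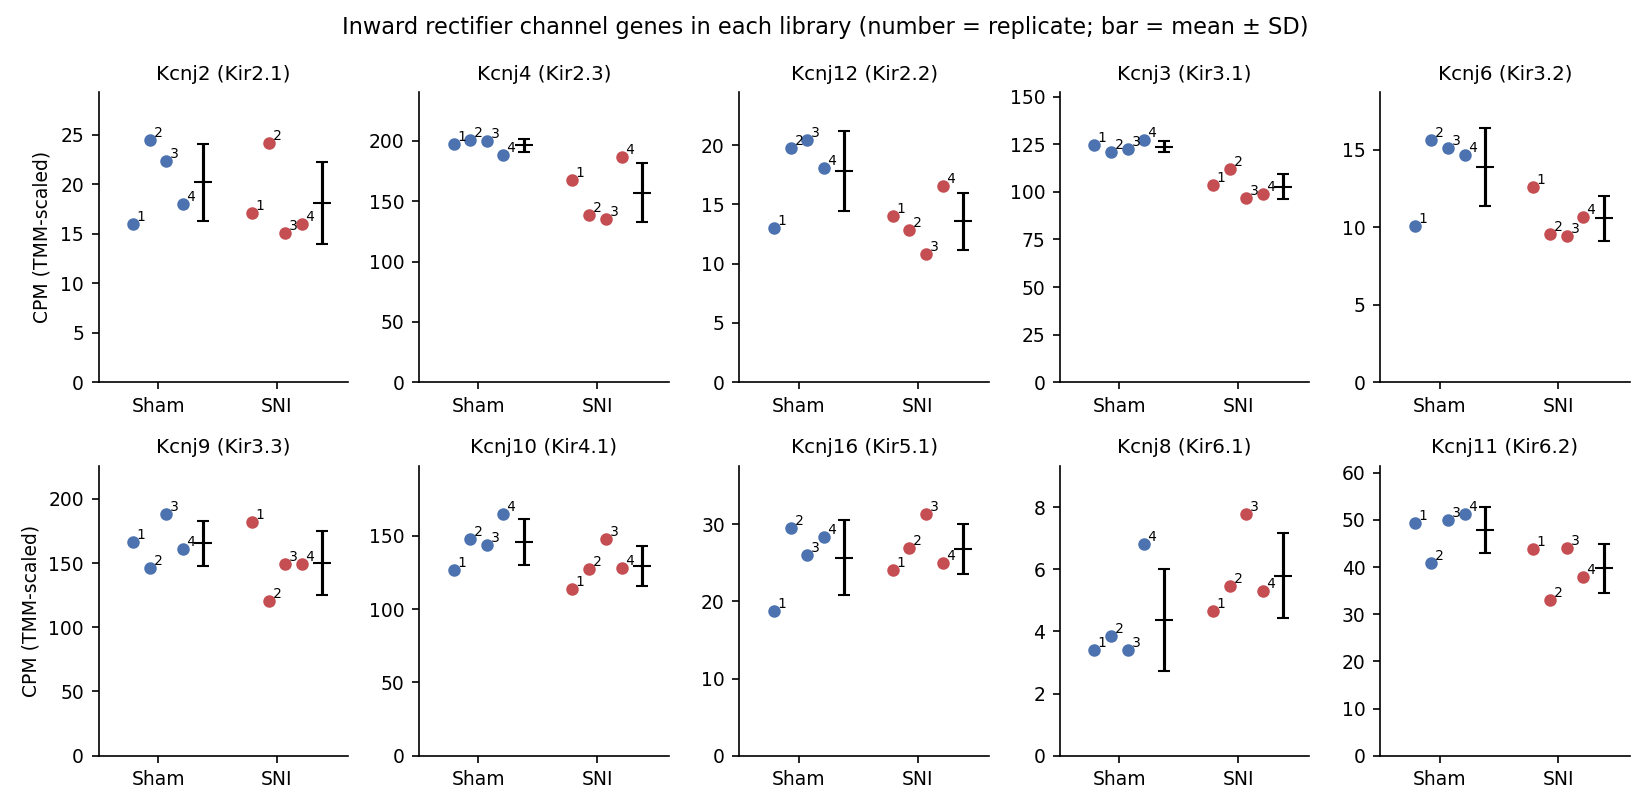
Level of each channel gene in CPM (read counts scaled by library size) in 4 Sham (blue) and 4 SNI (red) libraries, with replicate numbers beside the points and mean ± SD as black bars; every axis starts at 0. The Sham and SNI points of Kcnj3 and Kcnj4 do not overlap, and those of the other 8 genes do.

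The libraries held 14735602 to 19602487 counts each. The tissue carried the neuronal markers of a cortical sample: the 9 excitatory neuron markers, such as the vesicular glutamate transporter Slc17a7, summed to 5738 to 6616 CPM in Sham and 4351 to 5997 CPM in SNI. Markers of other cells also varied, within Sham too. The 10 oligodendrocyte markers, of which 0 passed, summed to 3173 to 7030 CPM in Sham and 4435 to 7858 CPM in SNI. The 12 striatal projection neuron markers summed to 346 to 594 CPM in Sham and 457 to 1003 CPM in SNI, highest in SNI replicates 2 and 4. The 10 microglia markers, of which 2 rose, reached their highest sum, 733 CPM, in SNI replicate 3. The 5 tested choroid plexus and ependyma markers, of which 2 rose, summed to 5.50 to 8.17 CPM in Sham and 11.7 to 15.7 CPM in SNI. The 5 blood markers, of which 1 rose and 1 fell, summed to 31.5 to 64.4 CPM against 81.0 to 184 CPM, so both sums were separated between groups. Of all single genes tested, 2.15% were called higher and 2.87% lower, and 12.7% had separated groups. The table lists no count below 1, so no marker with a row stands at 0.

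The genes lie on 7 chromosomes, and several are neighbours. In GRCm38 (GENCODE M21), Kcnj9 (chromosome 1, 172320501 to 172329318, minus strand) and Kcnj10 (172341210 to 172374085, plus strand) are 11.9 kb apart and point away from each other, with 0 protein-coding genes between them. Kcnj16 and Kcnj2 follow each other on the plus strand of chromosome 11 with a gap of 38.2 kb. Both Kir6 genes adjoin the gene of a sulfonylurea receptor on the same strand, Kcnj8 with Abcc9 on chromosome 6 (16.2 kb) and Kcnj11 with Abcc8 on chromosome 7 (3.76 kb). Kcnj3 spans 55435970 to 55598145 on the plus strand of chromosome 2, and Kcnj4 spans 79483714 to 79505241 on the minus strand of chromosome 15. Chromosome 11 also holds Kcnj12 (61022564 to 61071131, plus strand), and its Kcnj16 and Kcnj2 span 110968033 to 111027968 and 111066164 to 111076821. On minus strands, Kcnj6 spans 94748636 to 94997701 of chromosome 16, Kcnj8 142564837 to 142571614 of chromosome 6 and Kcnj11 46093953 to 46100764 of chromosome 7. An annotated RNA on the opposite strand shares 31.1% of the exon bases of Kcnj3, 4.98% of those of Kcnj6 and 4.01% of those of Kcnj9. None of these opposite-strand genes has a row, and the sources used here do not say whether counting used the strand, so the values of these 3 genes are uncertain to that extent.

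The promoter sequences of the 2 genes with separated groups are shown beside those of Kcnj9, another Kir3 gene, and Kcnj10, a glial channel gene, whose groups overlapped. Each is the 250 bases before the annotated start, 5′ to 3′ on the gene's strand, from RefSeq (GRCm38.p6). Capitals mark GGGCGG (the GC box) and CCAAT on either strand, so that CCGCCC and ATTGG are the same motifs read from the other strand.
Kcnj3 (chr2:55435720-55435969, plus strand): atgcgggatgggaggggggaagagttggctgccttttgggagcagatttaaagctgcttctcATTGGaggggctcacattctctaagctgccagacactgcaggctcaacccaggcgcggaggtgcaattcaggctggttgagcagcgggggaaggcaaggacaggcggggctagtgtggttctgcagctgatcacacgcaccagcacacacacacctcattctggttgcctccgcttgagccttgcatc
Kcnj4 (chr15:79505242-79505491, minus strand): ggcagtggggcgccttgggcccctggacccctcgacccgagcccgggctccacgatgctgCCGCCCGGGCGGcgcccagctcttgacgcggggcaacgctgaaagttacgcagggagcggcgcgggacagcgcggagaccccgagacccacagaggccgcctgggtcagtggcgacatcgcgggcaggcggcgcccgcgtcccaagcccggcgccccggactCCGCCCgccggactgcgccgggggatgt
Kcnj9 (chr1:172329323-172329572, minus strand): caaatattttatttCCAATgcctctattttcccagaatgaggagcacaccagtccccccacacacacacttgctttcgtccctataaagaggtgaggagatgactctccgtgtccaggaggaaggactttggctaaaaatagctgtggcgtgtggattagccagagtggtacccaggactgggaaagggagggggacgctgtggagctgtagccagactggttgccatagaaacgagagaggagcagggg
Kcnj10 (chr1:172340960-172341209, plus strand): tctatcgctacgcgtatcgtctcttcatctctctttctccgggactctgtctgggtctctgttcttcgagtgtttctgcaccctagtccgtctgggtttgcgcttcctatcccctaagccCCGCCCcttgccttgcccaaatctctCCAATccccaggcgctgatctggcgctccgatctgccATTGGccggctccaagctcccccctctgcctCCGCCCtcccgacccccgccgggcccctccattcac
The windows differed in base composition. The Kcnj4 window was 77.2% G or C with 35 CpG dinucleotides, above 97.4% of the 32851 promoter windows in the table in GC content. The Kcnj3 window had 58.4% and 7, that of Kcnj9 52.0% and 5, and that of Kcnj10 62% and 17, while the median window had 52.4% and 6. RefSeq windows matched 9 of the 10 genes, and Kcnj11 had none. At the first listed start of these 9, a GC box was found in 3 (Kcnj2, Kcnj4 and Kcnj10), against 32.7% of all windows, and CCAAT in 4, against 33.9%. Kcnj3 and Kcnj4, the 2 genes with separated groups, shared neither motif. RefSeq's gene spans reach further upstream than these windows for Kcnj3 (from 55411798), Kcnj4 (to 79512511) and Kcnj12 (from 61022564). Sequence at those outer ends was not used here. The Kcnj12 window, 61065554 to 61065803 of chromosome 11, lies inside the GENCODE span of the gene as well. A match of letters is a description and not a binding site.

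The Kir genes covered a wide range of levels per length of exon. Kcnj4 (Kir2.3) averaged 82.1 CPM per kb over the 8 libraries, higher than 96.1% of tested genes with an annotated length. Kcnj9 followed at 36.8, Kcnj10 at 25.4, Kcnj3 at 21.7 and Kcnj11 at 11.9 CPM per kb. Kcnj16 (6.67), Kcnj12 (5.71), Kcnj2 (3.52), Kcnj8 (2.0) and Kcnj6 (1.6) were the lower members, and Kcnj6 exceeded 23.2% of tested genes. The ranges over libraries of Kcnj9, Kcnj10 and Kcnj3 overlapped from each gene to the next, as did those of Kcnj16, Kcnj12, Kcnj2, Kcnj8 and Kcnj6. Those of Kcnj4 (63.0 to 93.1) and Kcnj11 (8.99 to 13.9) overlapped with no neighbour's.

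The first place of Kcnj4 depends on the gene model. RefSeq's span of Kcnj4 runs 3488 bases further at the 3′ end than GENCODE's, and with these bases counted as exon its level becomes 31.3 CPM per kb, below Kcnj9. The same addition lowers Kcnj12 to 3.21 (2138 bases) and Kcnj6 to 1.08 CPM per kb (3656 bases). These levels compare genes, and the choice of length does not touch the comparison of SNI with Sham.

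**Figure D2:**
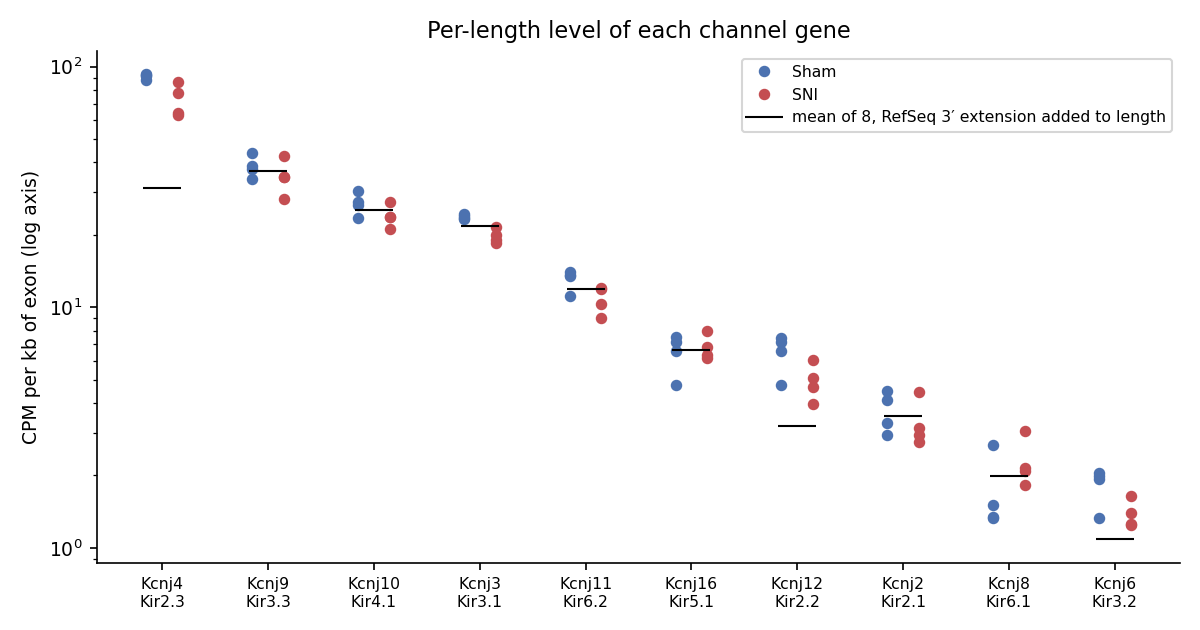
Level of each channel gene in CPM per kb of exon on a log axis, for 4 Sham (blue) and 4 SNI (red) libraries; black dashes give the mean of 8 libraries when the RefSeq 3′ extension is added to the exon length. Kcnj4 stands highest at 82.1 and falls to 31.3 with the longer length.

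Kir2 channels, the strong rectifiers of the resting membrane, were led by Kcnj4. Its levels were 197, 200.5, 199.5 and 189 CPM in Sham replicates 1 to 4 and 168, 138, 136 and 187 CPM in SNI replicates 1 to 4. The Sham libraries lay close together, and the SNI libraries ranged from SNI replicate 4, just under the lowest Sham value, to replicates 2 and 3, far below it. The means were 196 ± 5.46 and 157 ± 24.4 CPM (± SD, n = 4 per group), and the log2 fold change was -0.32 ± 0.0977 (SE) with a 95% interval of -0.53 to -0.12. The edgeR quasi-likelihood test gave an adjusted p of 0.0680, so Kcnj4 did not pass. It passed with DESeq2 (adjusted p = 0.0273) and, in edgeR, without SNI replicate 4 (0.0215), and its log2 fold change was -0.15 without SNI replicates 2 and 3.

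Kcnj12 (Kir2.2) had 13.0, 19.8, 20.4 and 18.1 CPM in Sham and 14, 12.8, 10.8 and 16.6 CPM in SNI. Sham replicate 1 lay among the SNI libraries, below 2 of them. Its log2 fold change was -0.39 ± 0.154 (SE), with a 95% interval of -0.72 to -0.07 and an edgeR adjusted p of 0.154. Kcnj2 (Kir2.1) had 16.0, 24.4, 22.4 and 18 CPM in Sham and 17.1, 24.2, 15.0 and 16.0 CPM in SNI. Its groups overlapped through most of their range, with SNI replicate 2 near the top of the Sham values. The log2 fold change of Kcnj2 was -0.15 (95% interval -0.50 to 0.19, edgeR adjusted p = 0.627). By GENCODE lengths Kcnj4 exceeded Kcnj2 in every library, by 20.8 to 31.2 times in Sham and 14.5 to 29.4 times in SNI. With the RefSeq 3′ bases the distance is smaller, at means of 31.3 and 3.51 CPM per kb over the 8 libraries.

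Kir3 subunits are the effectors of inhibitory receptors, and Kir3.1, the product of Kcnj3, reaches the cell surface only in company with another subunit. Kcnj3 had counts of 1840, 1820, 1939 and 2216 in Sham and 1674, 2258, 1453 and 1639 in SNI, or 125, 121, 123 and 127 CPM against 104, 112, 96.7 and 98.8 CPM. The Sham values formed a tight group, and the highest SNI value, replicate 2, lay below the lowest Sham value. The means were 124 ± 2.73 and 103 ± 6.74 CPM (± SD, n = 4 per group), so that Kcnj3 fell by 17.0%. Its log2 fold change was -0.27 ± 0.0741 (SE), with a 95% interval of -0.43 to -0.11 and an edgeR adjusted p of 0.0479. Across the 18 alternatives, each of which kept the direction, its log2 fold change ran from -0.31 to -0.22 and 5 passed. Of the 8 fits that left out 1 library, the call held without SNI replicate 2 (edgeR adjusted p = 0.0212) and ended without any of the other 7 (0.0642 to 0.139, highest without Sham replicate 3). Neuron markers moved in both directions: of 9 excitatory markers 2 fell, of 8 upper-layer markers, such as Cux2, 3 fell, and of 8 deep-layer markers 2 rose (medians -0.18, -0.21 and 0.30), beside 2.87% of all tested genes called lower and 2.15% higher. The upper-layer markers summed to 805 to 1010 CPM in Sham and 692 to 747 CPM in SNI. Their part in the Kcnj3 and Kcnj4 values was not tested.

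Kcnj6 (Kir3.2), a subunit that can form channels on its own or with Kir3.1, had 10.1, 15.6, 15.1 and 14.7 CPM in Sham and 12.6, 9.56, 9.45 and 10.7 CPM in SNI. Sham replicate 1 lay within the SNI range, and the other 3 Sham libraries lay above all SNI libraries. Its log2 fold change was -0.40 ± 0.151 (SE), with a 95% interval of -0.72 to -0.08 and an edgeR adjusted p of 0.144. Kcnj9 (Kir3.3), a further brain Kir3 subunit, had 166, 146, 188 and 161 CPM in Sham and 182, 120.3, 149 and 149.6 CPM in SNI. The groups overlapped, with SNI replicate 1 near the highest Sham value and SNI replicate 2 below all others. The log2 fold change of Kcnj9 was -0.14 (95% interval -0.38 to 0.10, edgeR adjusted p = 0.508).

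The relative levels of the Kir3 subunits overlapped between groups. Per length, the ratio of Kcnj3 to Kcnj6 was 11.3 to 18.1 in Sham and 12.1 to 17.1 in SNI, and that of Kcnj9 to Kcnj3 was 1.47 to 1.87 in Sham and 1.31 to 2.13 in SNI. By these gene models Kcnj6 was the scarce subunit in all 8 libraries.

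**Figure D3:**
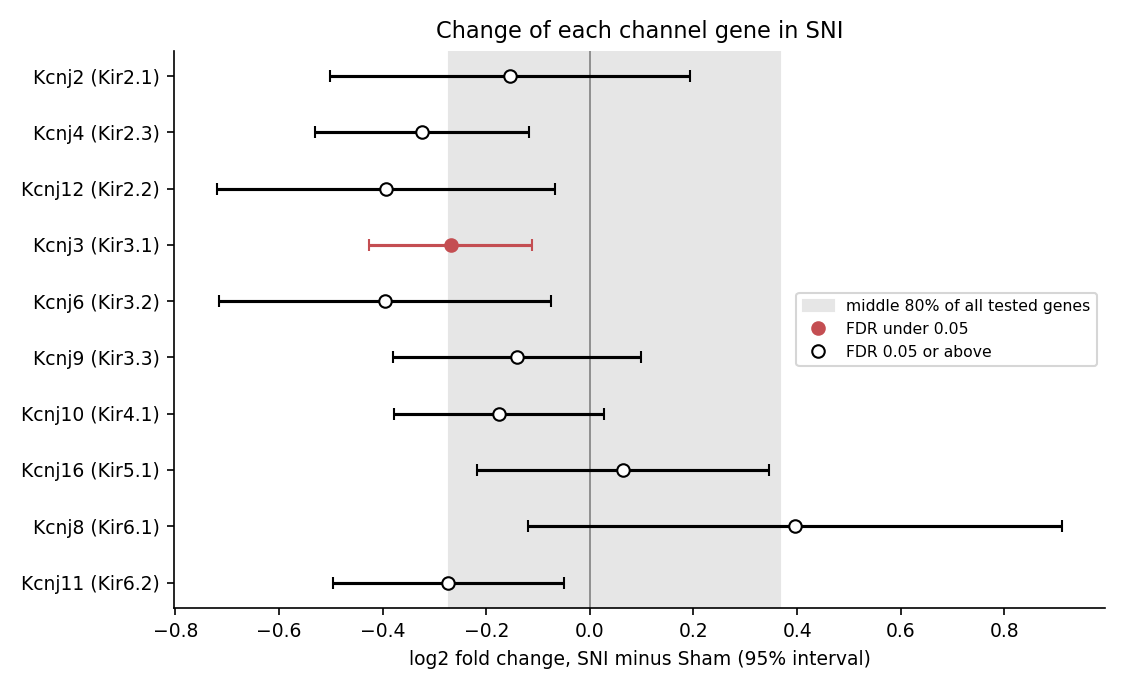
Log2 fold change of SNI over Sham with its 95% interval for each channel gene (edgeR, 4 libraries a group); the grey band holds the middle 80% of all tested genes, from -0.27 to 0.37, and red marks an adjusted p under 0.05. Kcnj3 is the 1 red point at -0.27, and Kcnj16 and Kcnj8 are the 2 points above 0.

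Kir4.1 and Kir5.1 are glial channels in cortex. Kcnj10 (Kir4.1) had 127, 148, 144 and 165 CPM in Sham and 114, 127.6, 147 and 127.9 CPM in SNI. SNI replicate 1 was lowest and Sham replicate 4 highest, and the groups overlapped between these ends. SNI over Sham gave a log2 fold change of -0.18 ± 0.0953 (SE), with a 95% interval of -0.38 to 0.03 and an edgeR adjusted p of 0.306. Kcnj16 (Kir5.1), which alters the pH sensitivity of Kir4.1 channels, had 18.7, 29.5, 26.0 and 28.3 CPM in Sham and 24.1, 26.9, 31.3 and 24.9 CPM in SNI. Its SNI values spread over the upper part of the Sham range and past its end. The log2 fold change of Kcnj16 was 0.06 (95% interval -0.22 to 0.35, edgeR adjusted p = 0.828), and it took the opposite sign without Sham replicate 1 (-0.06) or SNI replicate 3 (-0.02).

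Kcnj10 exceeded Kcnj16 per length by 3.64 to 4.93 times in Sham and 3.42 to 3.73 times in SNI, ranges that overlapped from 3.64 to 3.73. Of the 10 astrocyte markers 0 passed, and 9 had a log2 fold change above 0, as had 7259 of all 13911 tested genes. These markers summed to 1851 to 2359 CPM in Sham and 1963 to 2602 CPM in SNI. Sham replicate 1 had the lowest sum of the Sham libraries and the lowest Kcnj10 and Kcnj16, and SNI replicate 3 had the highest sum, Kcnj10 and Kcnj16 of the SNI libraries. Their part in the Kir4.1 and Kir5.1 values was not tested.

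Kcnj10 was also set against the summed level of the astrocyte markers in the same library, a measure chosen after its values were seen and given with no test. Kcnj10 was not set against the sums of oligodendrocyte or oligodendrocyte precursor markers. It was 6.86%, 7.22%, 7.18% and 6.99% of the sum of 10 astrocyte markers in Sham replicates 1 to 4 and 5.81%, 5.49%, 5.67% and 5.84% in SNI replicates 1 to 4. The groups did not overlap on this scale, while they did in CPM. This was not particular to Kcnj10: Kcnj3, which was separated in CPM too, was 5.39% to 6.74% of the same sum in Sham and 3.72% to 5.28% in SNI. For Kcnj10 the separation held with each of the 10 markers left out in turn, and against 7 of the 10 markers taken singly, not against Aldh1l1, Aqp4 or Sox9. On this scale 5.25% of all 13911 tested genes had SNI values all lower, as had 2 of 21 other astroglial genes, Dag1 and Glul. Kcnj16, the partner of Kcnj10, was 1.24% ± 0.181 of the sum in Sham libraries, against 1.18% ± 0.0409 in SNI (± SD, n = 4 per group), and the groups overlapped. Against the sum of the 8 upper-layer neuron markers, itself lower in all SNI libraries, Kcnj16 was 2.32% to 3.36% in Sham and 3.37% to 4.53% in SNI. Its groups were separated there, as were those of 36.9% of all tested genes in that direction, and remained so with 5 of the 8 markers left out singly.

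Kir6 subunits form the pore of ATP-sensitive channels. Kcnj11 (Kir6.2), the neuronal form, had 49.4, 40.8, 50.04 and 51.3 CPM in Sham and 43.8, 33.0, 44.1 and 37.8 CPM in SNI. Sham replicate 2 fell among the SNI libraries, and the other 3 Sham libraries lay above all of them. The log2 fold change was -0.27 ± 0.105 (SE), with a 95% interval of -0.50 to -0.05 and an edgeR adjusted p of 0.148. Its partner Abcc8, the sulfonylurea receptor SUR1, averaged 22.7 ± 3.58 CPM over Sham and 20.1 ± 2.75 CPM over SNI libraries (± SD, n = 4 per group, log2 fold change -0.18, edgeR adjusted p = 0.464). The per-length ratio of Kcnj11 to Abcc8 was 4.11 to 5.22 in Sham and 4.1 to 4.84 in SNI, so the groups overlapped.

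Kcnj8 (Kir6.1), found mainly in pericytes and vascular smooth muscle, was the scarcest of the 10 by count, with 50, 58, 54 and 119 counts in Sham and 75, 110, 117 and 88 in SNI. In CPM these were 3.39, 3.85, 3.41 and 6.82 against 4.65, 5.45, 7.79 and 5.30. SNI values lay above 3 Sham libraries, while Sham replicate 4 exceeded all but SNI replicate 3. Its log2 fold change was 0.40 ± 0.243 (SE) with a 95% interval of -0.12 to 0.91 and an edgeR adjusted p of 0.373, so the interval included both directions. The 9 tested mural cell markers summed to 224 to 288 CPM in Sham and 209 to 352 CPM in SNI. Within each group their highest sums were in Sham replicate 4 and SNI replicate 3, as for Kcnj8. The sums of astrocyte, microglia and endothelial cell markers were highest in the same libraries, so this was not particular to mural markers. The part of any of these markers in the Kcnj8 values was not tested. Abcc9, the SUR2 partner and one of the mural markers, averaged 8.48 ± 0.967 CPM over Sham and 7.77 ± 1.71 CPM over SNI libraries (± SD, n = 4 per group, edgeR adjusted p = 0.713).

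The remaining family members were scarce. Kcnj14 (Kir2.4) averaged 1.74 ± 0.253 CPM over Sham and 1.03 ± 0.468 CPM over SNI libraries (± SD, n = 4 per group, edgeR adjusted p = 0.232). Kcnj5 had 23 counts over the 4 Sham and 21 over the 4 SNI libraries, and Kcnj15 had 11 and 37, of which 25 were in SNI replicate 1. Neither passed the filter on low counts. Kcnj1 and Kcnj13 were looked for and had no row among the genes of the count table, so their levels are not known from it.

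**Figure D4:**
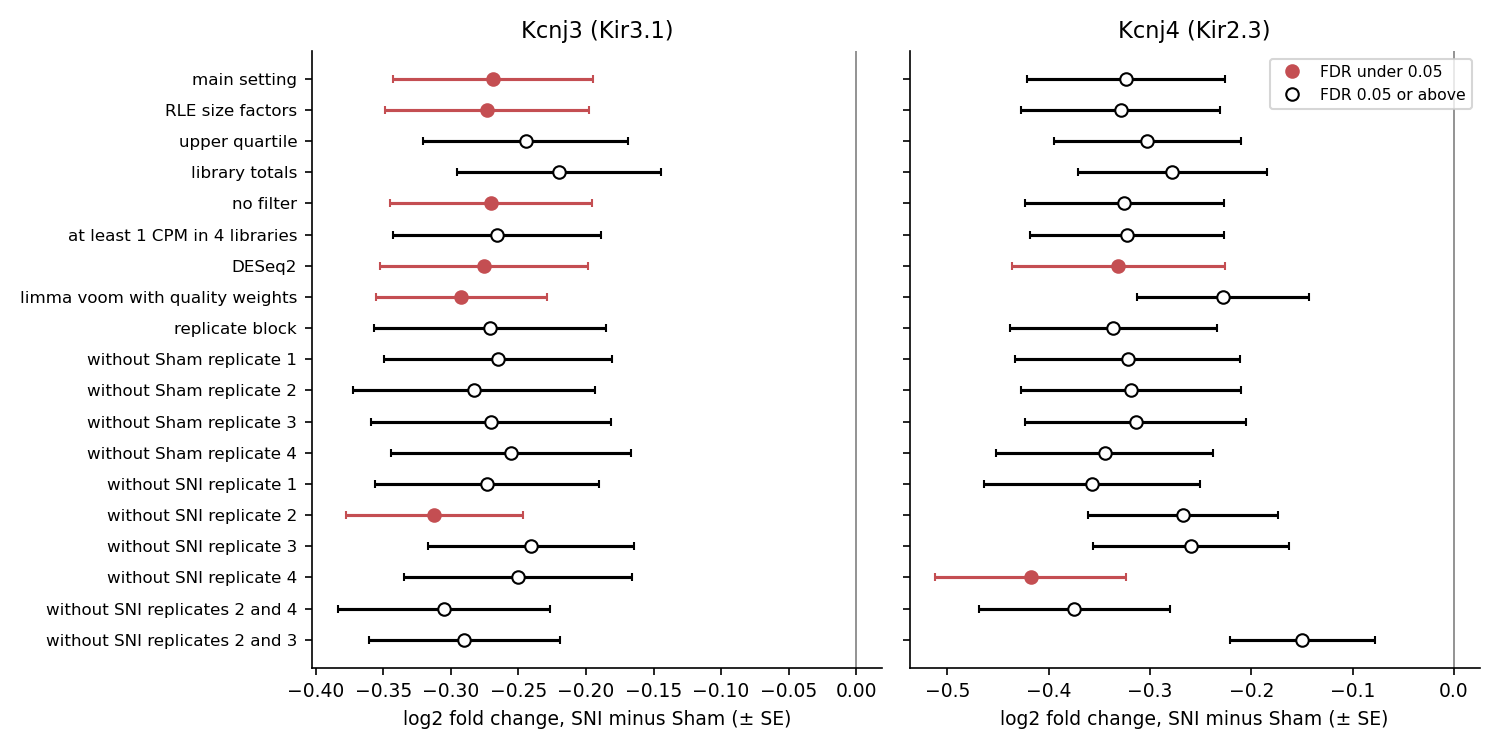
Log2 fold change of Kcnj3 and Kcnj4 with its SE under the main setting (top) and each of 18 alternatives; red marks an adjusted p under 0.05. Every value lies below 0, and red points are 6 of 19 for Kcnj3 and 2 of 19 for Kcnj4.

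Signalling genes that control Kir3 channels included several that fell. The partner lists were chosen with earlier results of these data known, so their counts are a description only. Of 20 tested Gi/o-coupled receptors known to open Kir3 channels, 3 fell and 0 rose, where 2.87% of all tested genes were called lower. The list median was -0.05, and 12 of the 20 had a log2 fold change below 0, against 47.8% of all tested genes. Grm2, a presynaptic glutamate receptor, had 93.0, 105.3, 89.9 and 100.7 CPM in Sham and 73.05, 42.7, 51.8 and 52.5 CPM in SNI (log2 fold change -0.82 ± 0.132 SE, edgeR adjusted p = 0.00507). Sstr3, a somatostatin receptor of neuronal cilia, had a log2 fold change of -0.56 and Npy1r, a neuropeptide Y receptor, one of -0.37. The SNI values of all 3, which were named for their small p, lay below the Sham values. Over the whole list, 3 of 20 had separated groups, against 12.7% of all tested genes. The GABA-B receptor genes Gabbr1 and Gabbr2, classic partners of Kir3 channels, had -0.08 and -0.26 and did not pass (edgeR adjusted p = 0.593 and 0.108). Both were chosen for naming after their values were seen.

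Of 20 RGS proteins and other Kir3 regulators, 5 fell and 0 rose, with a list median of -0.10, again beside 2.87% of all tested genes called lower. Rgs4, which speeds the shut-off of Gi/o signals, went from 590 ± 58.9 to 338 ± 49.9 CPM (± SD, n = 4 per group, log2 fold change -0.81 ± 0.107 SE, edgeR adjusted p = 0.00118). Kctd16, an auxiliary subunit of GABA-B receptors, had a log2 fold change of -0.92, Rgs20 -0.42, Rgs6 -0.36 and Rgs7 -0.31. In each of the 5, which were named for their small p, the 4 SNI values lay below the 4 Sham values. Over the whole list, 5 of 20 had separated groups, against 12.7% of all tested genes. Of 18 Gi/o alpha and G beta gamma subunits 0 passed (median -0.04), and that of smallest p, Gng11, had 0.55 with an edgeR adjusted p of 0.0706. At an unadjusted p under 0.05, in either direction, stood 3 of these 18 genes and 10 of the 20 regulators, against 21.1% of all tested genes. Log2 fold changes were below 0 for 12 of the 18 and for 11 of the 20 regulators, against 47.8% of all tested genes. Gng11 passed with DESeq2 (adjusted p = 0.0372) and, in edgeR, without SNI replicate 1 (0.0149).

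Log2 fold changes were below 0 for 11 of 14 genes of PIP2 metabolism and for 10 of 13 scaffold partners, against 47.8% of all tested genes. Channels of the Kir family need the membrane lipid PIP2, and of 14 genes that make or break it 1 fell: Pip5k1c, a kinase that synthesises PIP2, from 546 ± 37.3 to 424 ± 61.1 CPM (± SD, n = 4 per group, edgeR adjusted p = 0.0498). Of 13 PDZ and scaffold partners 2 fell, beside 2.87% of all tested genes called lower, and 10 had an unadjusted p under 0.05, as had 4 of the 14 PIP2 genes (21.1% of all tested genes). Dlg4, which encodes PSD-95 and binds the tail of Kir2 channels, had a log2 fold change of -0.37, and Magi1 had -0.32 (edgeR adjusted p = 0.0257 and 0.0310). The medians of these lists were -0.12 and -0.20, against 0.01 over all genes. SNI replicate 2 was lowest for Pip5k1c and Dlg4, as it was for the sum of excitatory neuron markers. The part of that in these values was not tested.

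Of the astroglial genes around Kir4.1, 10 of 13 in the endfoot list and 6 of 12 in the clearance list had a log2 fold change above 0. So had 7259 of all 13911 tested genes. Of 13 genes of the dystrophin complex and endfoot 0 passed (median 0.08). Sntb1, a syntrophin, had 0.76 with an edgeR adjusted p of 0.0839 and 4 SNI values above all Sham values. It passed without Sham replicate 2 (0.0458), and 2 of these 13 genes had an unadjusted p under 0.05, a share below the 21.1% of all tested genes. Of 12 genes of potassium and glutamate clearance 1 rose, beside 2.15% of all tested genes called higher. This was Fxyd1, phospholemman, a regulator of the sodium pump. It had 21.7, 24.7, 16.1 and 23.7 CPM in Sham and 32.9, 38.8, 41.5 and 27.3 CPM in SNI. Its log2 fold change was 0.70 ± 0.146 (SE, edgeR adjusted p = 0.0159).

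Among these partners, Grm2 and Rgs4 passed in all 18 alternatives. Sstr3, Kctd16 and Rgs20 passed in 17, each passing whichever single library was left out. The call of Fxyd1 ended without SNI replicate 2 or 3 (edgeR adjusted p = 0.0534 and 0.0537), and that of Dlg4 without Sham replicate 1, 2 or 3 or SNI replicate 3 (highest 0.0766). Magi1 passed only without SNI replicate 1 or 2 among the fits that left out 1 library, and Rgs7 likewise (highest 0.0966 and 0.168). Npy1r and Pip5k1c passed only without SNI replicate 1 (highest 0.143 and 0.147), and Rgs6 without Sham replicate 1 or 2 or SNI replicate 3 (highest 0.121). Part of the exons of Grm2, Kctd16, Rgs20 and Rgs6 is shared with an annotated gene on the opposite strand, so these values are uncertain to that extent.

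**Figure D5:**
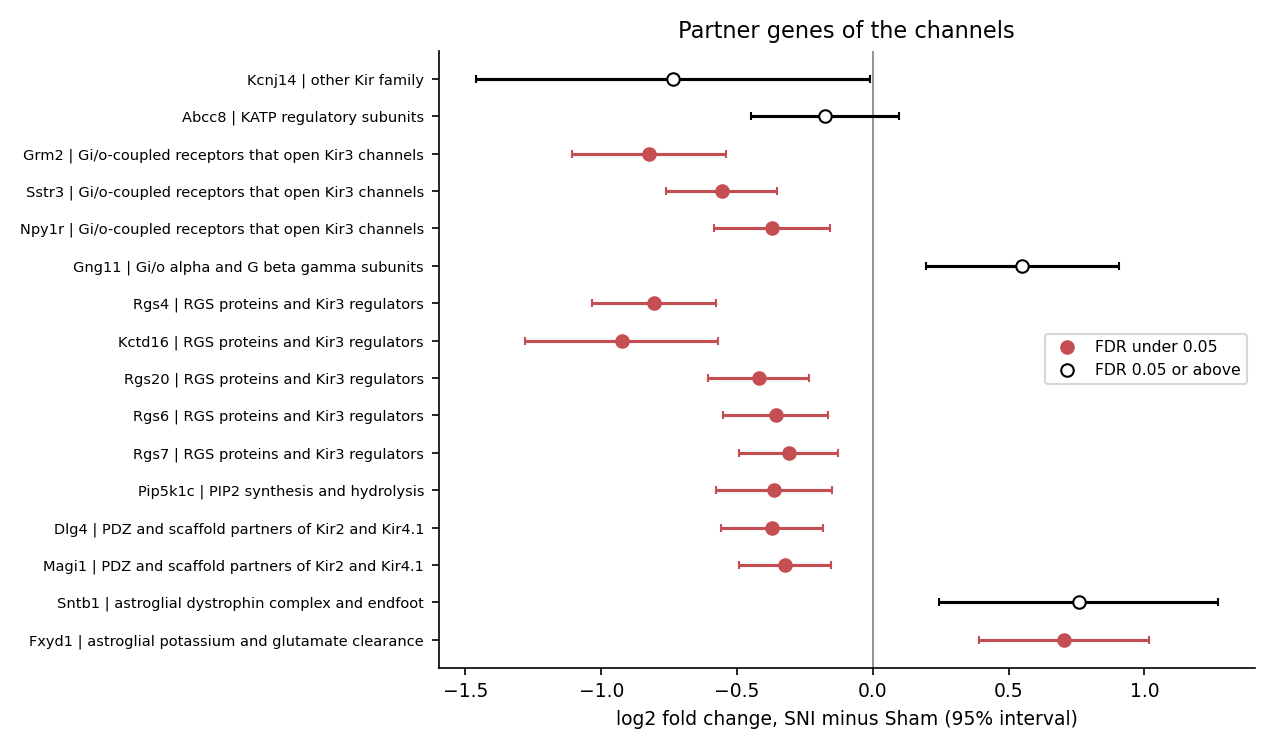
Log2 fold change of SNI over Sham with its 95% interval for partner genes named by rule, each with its list (edgeR, 4 libraries a group); red marks an adjusted p under 0.05. Of the 12 red points, 11 lie below 0 and Fxyd1, at 0.70, above.

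Genes whose library-to-library pattern was most like that of a channel gene were taken from those with a mean log2 CPM of at least 5, after removing each group's mean. Over 8 libraries the closest to Kcnj3 were Impa1, Htr2a and Trappc2l (Pearson r = 0.97, 0.94 and 0.93). For Kcnj9 they were Map1a, Aak1 and Phf24 (0.98, 0.98 and 0.98), and for Kcnj4 Ppp2r5d, Hdgf and Gtf2i (0.99, 0.98 and 0.97). For Kcnj10 they were Slc25a18, Fgf1 and Fam107a (0.98, 0.96 and 0.96). For Kcnj8 they were MARCHF2, Idh2 and the astrocyte marker Gfap (0.96, 0.96 and 0.95). The closest single genes were Cse1l for Kcnj2 (0.98), Ipo8 for Kcnj6 (0.95), Eml2 for Kcnj11 (0.995), Atp8a2 for Kcnj12 (0.97) and Fbxo38 for Kcnj16 (0.95). These are the highest of 6198 or 6199 values over 8 points that share library and depth, and they are given as a description.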

How the data were processed

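The submitters' processing notes name fastp, HISAT2, StringTie and the build GRCm38. Not given in the sources used here are versions, annotation, strand setting and the filter behind the table. The authors deposited whole-number read counts per gene symbol. The smallest count is 1.

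All 13911 genes kept by filterByExpr were scaled between libraries by TMM and tested with edgeR 4.0.16 (R 4.3.3), whose robust quasi-likelihood test was two-sided and fitted group alone, and p-values were adjusted by Benjamini-Hochberg with a threshold of 0.05. CPM values are TMM-scaled. Levels per kb use the union of exons in GENCODE M21. The SE is the log2 fold change divided by the square root of F. The fit was tested on simulated data.

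All 10 members were named whatever their values, as were, in each partner list, up to 5 called genes of smallest p or else the 1 of smallest p. Members and lists were chosen with earlier results of these data known. Alternatives were RLE, upper quartile and library-total scaling, other filters, DESeq2 1.42.0, limma 3.58.1 voom, a replicate block, other thresholds, and leaving out libraries. The result of 1 partner list is not reported here.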

Additional observations from a re-analysis of the deposited data

Results flagged for a closer look

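In each group of 4 libraries, a library was set apart when its gap to the nearest of the others passed Dixon's 95% critical value as a share of the group's range. Of 68 groups examined, 5 met this, where chance gives about 1 in 20. Sham replicate 1 had 10.1 CPM of Kcnj6, against 14.7 to 15.6 in the other 3 Sham libraries. Sham replicate 4 had 6.82 CPM of Kcnj8, against 3.39 to 3.85 in the others, and a per-length ratio of Kcnj8 to Abcc9 of 2.33, against 1.38 to 1.52. SNI replicate 2 had 334 CPM of Pip5k1c, against 445 to 467 in the other SNI libraries. SNI replicate 4 had a per-length ratio of Kcnj10 to Kcnj16 of 3.73, against 3.42 to 3.45.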

How the results depend on the processing

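Of the 10 channel genes, 8 kept their direction in all 18 alternatives. The exceptions were Kcnj9, at 0.00041 without SNI replicates 2 and 4 and 0.0022 with 2 and 3 left out, and Kcnj16, which ranged from -0.060 to 0.13 with 1 library left out, at -0.060 without Sham replicate 1, -0.018 without SNI replicate 3 and -0.065 without SNI replicates 2 and 3. Abcc9 was at 0.0075 without SNI replicate 1, within a range of -0.22 to 0.0075. The cause was not tested. The number of channel genes called lower was 0 with upper quartile scaling, library totals, the filter of 1 CPM, a threshold of 0.01, and without SNI replicates 2 and 4 or 2 and 3. It was 2 with DESeq2 and at a threshold of 0.1, and 0 to 1 when 1 library was left out. With the replicate number as a block it was 0 (Kcnj3 adjusted p = 0.0950) and 518 of all genes were called. Deviations of same-numbered libraries had correlations of -0.16 to 0.0020, and those of differently numbered libraries -0.20 to 0.23. The labels do not say whether a shared number marks a pairing, and these correlations cannot settle it. Over all genes, 1153 were called with DESeq2, 1279 at a threshold of 0.1, 155 at 0.01, 438 when SNI replicates 2 and 4 were left out and 178 when 2 and 3 were, and 258 to 858 with 1 library left out. The split of higher to lower calls was 299 to 399, 446 to 276 with library totals and 342 to 341 with upper quartile scaling. Counts of 50 to 119 limit Kcnj8.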

Other observations

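The levels of the channel genes were also set against the summed level of neuronal and mural markers in the same library, a measure chosen after its values were seen and given with no test. Against the sum of 9 excitatory neuron markers, Kcnj3 was 2.01% ± 0.140 in Sham libraries and 1.99% ± 0.393 in SNI, and Kcnj4 3.19% ± 0.281 and 3.00% ± 0.427 (± SD, n = 4 per group). For Kcnj3, SNI replicates 1, 3 and 4 (1.73%, 1.80% and 1.848%) lay below the lowest Sham value of 1.852%. The overlap came from SNI replicate 2 (2.57%), the library with the lowest sum of these markers. Against the sum of 8 upper-layer markers, Kcnj3 was 13.7% ± 1.28 in Sham and 14.3% ± 0.521 in SNI. Both genes were separated between groups in CPM, and overlapped on these scales. The upper-layer sum was itself lower in all SNI libraries, which raises SNI values on that scale. There, 36.9% of all tested genes had SNI values all higher. The share of all genes that lose a separation on these scales was not counted. The part of the neuron markers in the Kcnj3 and Kcnj4 values was not tested. Kcnj8 was 1.73% ± 0.442 of the sum of 9 mural cell markers in Sham and 2.15% ± 0.294 in SNI, and the groups overlapped.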
